A study of Mus musculus with 9 samples.

Results

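The genes described are the Id genes Id1, Id2 and Id3 and the E protein genes Tcf3, Tcf4 and Tcf12 of the mouse. They were chosen by name and matched by Ensembl gene ID, and all 6 are among the 25759 gene rows measured. RNA sequencing was done on 9 libraries of sorted CD4+ T cells, 3 in each of 3 groups, from C57BL/6 mice aged 8 to 12 weeks that all carried the Foxp3GFP reporter, a transgene that makes Foxp3-expressing cells fluoresce. The activated BMPR1a/CD4cre cells came from mice with a conditional knockout of the BMP receptor gene Bmpr1a; Cre under Cd4 control acts in T-lineage cells from the stage at which Cd4 is expressed in the thymus, CD8 T cells included. The activated wild-type (WT) cells were treated alike: whole lymph node and spleen populations were cultured for 3 days with concanavalin A (ConA) at 2 ug/ml, a lectin that stimulates T cells, and LPS at 10 ng/ml, and were then sorted as CD4+CD44+CD62L-Foxp3GFP-. The naive WT cells were sorted directly from lymph nodes and spleen as CD4+CD44-CD62+Foxp3GFP-, with no culture. Activated and naive cells therefore differed in stimulation, in time in culture and in the sort gate at once. Levels are in FPKM, which scales the fragments counted on a gene by its transcript length and by library size, so that they can be compared between genes per unit of length.

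On GRCm38 with the GENCODE M21 annotation, Id1 lies at chr2:152736251-152737410 on the plus strand, Id2 at chr12:25093799-25097140 on the minus strand and Id3 at chr4:136143497-136145755 on the plus strand. Tcf3 lies at chr10:80409514-80433647 on the minus strand, Tcf4 at chr18:69343356-69689079 on the plus strand and Tcf12 at chr9:71842688-72111871 on the minus strand. The E protein genes are long and have many annotated transcripts, 14 for Tcf3, 62 for Tcf4 and 21 for Tcf12, against 2 for Id1, 3 for Id2 and 3 for Id3, so each of their FPKM values sums many possible isoforms. No annotated gene that overlaps a member touches one of its exons.

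E proteins are transcription factors of the basic helix-loop-helix (bHLH) class that bind, as dimers, the DNA letters CANNTG, called an E-box. Id proteins have the helix-loop-helix through which such factors pair but lack the basic stretch that touches DNA, so an E protein held by an Id protein cannot bind its site. In T cells E proteins act in thymic development and in holding the naive state, Id2 is known for its role in effector and innate-like lymphocytes, and Id3 for its induction by T cell receptor signalling through Egr factors and its role in naive, memory and follicular cells. Id1 and Id3 are textbook targets of BMP signalling through SMAD proteins in many cell types. The symbols need care, since the Wnt-pathway HMG-box genes Tcf7l1 and Tcf7l2 share the aliases Tcf3 and Tcf4. Here Tcf3 is the gene also named E2A, Tcf4 the gene also named E2-2, and Tcf12 the gene also named HEB.

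RefSeq promoter windows of the GRCm38.p6 build run from 250 bases before to 50 bases after a transcript start. They were matched for 4 of the 6 genes, Id2, Id3, Tcf3 and Tcf12, the last with 3 alternative starts. The windows of Id2 and Id3 lie inside the GENCODE gene spans given above, so their starts are not the outer ends of those spans. Those of Id2, Id3 and Tcf3 are shown because Id2 and Tcf3 were higher in activated cells while Id3 was not, and because an E-box marks the letters that the E proteins themselves bind. E-boxes, searched as CANNTG on both strands, are in capitals. The Id2 window is chr12:25096043-25096342 (minus strand), the Id3 window chr4:136143572-136143871 (plus strand) and the Tcf3 window chr10:80433586-80433885 (minus strand).
Id2: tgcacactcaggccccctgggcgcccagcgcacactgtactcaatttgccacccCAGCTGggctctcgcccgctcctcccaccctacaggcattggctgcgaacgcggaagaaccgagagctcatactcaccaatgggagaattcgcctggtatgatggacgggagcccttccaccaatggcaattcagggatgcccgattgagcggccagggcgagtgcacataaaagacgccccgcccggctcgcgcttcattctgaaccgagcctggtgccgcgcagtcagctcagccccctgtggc
Id3: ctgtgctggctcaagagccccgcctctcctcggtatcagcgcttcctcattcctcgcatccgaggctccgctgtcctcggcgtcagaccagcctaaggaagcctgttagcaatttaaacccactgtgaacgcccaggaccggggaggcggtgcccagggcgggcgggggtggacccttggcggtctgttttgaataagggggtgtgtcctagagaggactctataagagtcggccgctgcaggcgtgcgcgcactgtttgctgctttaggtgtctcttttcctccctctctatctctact
Tcf3: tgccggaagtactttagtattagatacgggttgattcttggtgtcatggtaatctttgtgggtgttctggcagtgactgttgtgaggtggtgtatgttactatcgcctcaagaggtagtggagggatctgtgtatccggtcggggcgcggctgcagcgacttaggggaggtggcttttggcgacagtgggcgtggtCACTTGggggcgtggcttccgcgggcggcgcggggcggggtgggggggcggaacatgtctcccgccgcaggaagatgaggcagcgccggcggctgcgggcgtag
The Id2 window held 1 E-box, CAGCTG, 196 bases before the start, and the Tcf3 window held 1, CACTTG, 54 bases before the start. The Id3 window held none. An E-box was present in 72.3% of 32851 promoters of the same length, and the form CAGCTG, a subset of these, in 16.3%. The letters GGCGCC, a core that SMAD proteins can bind, were found once, in the Id2 window at 231 bases before the start, and in 11.9% of all promoters. Neither the EGR motif GCGNGGGCG (5.55% of all promoters) nor the STAT motif TTCNNNGAA (8.30%) was found in any of these 3 windows. These matches describe letters in a short window and nothing about binding.

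The number of genes at or above 1 FPKM ran from 12922 to 13395 in the libraries, and libraries of 1 group correlated at 0.911 or more (Pearson's r). Knockout and activated WT libraries correlated with each other at 0.9115 to 0.9291, much as libraries of 1 group did. Read depth is unknown, because FPKM do not keep it. Bmpr1a itself, measured over the whole gene with its undeleted exons, was at 0.957, 1.93 and 1.20 FPKM in knockout libraries, 2.16, 2.92 and 1.40 FPKM in activated WT libraries and 0.460, 0.311 and 0.336 FPKM in naive libraries. The knockout and activated WT values overlapped and were not called different by limma (log2 difference -0.41, adjusted p = 0.261), so the gene-level value does not check the label. Among markers of other cell types, B cell genes were present in 8 of the 9 libraries at summed levels from 45.1 to 159 FPKM and at 2.62 FPKM in naive library 2. CD8 T cell genes (Cd8a and Cd8b1) summed to 219.6 to 279 FPKM in knockout cells, 147 to 230 FPKM in activated WT cells and 9.48 to 41.4 FPKM in naive cells, despite the CD4 sort. In bulk RNA, fewer cells of a type and less RNA per cell cannot be told apart.

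Tcf3, Id2, Tcf12 and Id3 were well expressed in every group, Tcf4 was low and Id1 was below 1 FPKM in every library. In knockout cells the mean order was Tcf3 (72.3 FPKM), Id2 (69.4 FPKM), Tcf12 (37.4 FPKM), Id3 (28.2 FPKM), Tcf4 (4.10 FPKM) and Id1. In activated WT cells the order was the same, with Tcf3 at 64.9 FPKM, Id2 at 49.6 FPKM, Tcf12 at 34.9 FPKM, Id3 at 28.8 FPKM and Tcf4 at 3.82 FPKM. In naive cells Id3 came before Id2: Tcf3 was at 39.5 FPKM, Id3 at 32.5 FPKM, Id2 at 31.9 FPKM, Tcf12 at 27.8 FPKM and Tcf4 at 1.49 FPKM. The library ranges of neighbours in that order overlapped for Tcf3 and Id2 in knockout cells, for Tcf12 and Id3 in activated WT cells, and for Tcf3 and Id3, Id3 and Id2, and Id2 and Tcf12 in naive cells. Among the 15126 genes tested, Tcf3 stood at the percentile 88.6 in knockout cells, 88.0 in activated WT cells and 82.1 in naive cells, while Tcf4 stood at 29.8, 29.5 and 17.6 in the same groups. Id4, the remaining Id gene, was listed at 0 in 8 libraries and at 0.0195 FPKM in activated WT library 1.

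**Figure D1:**
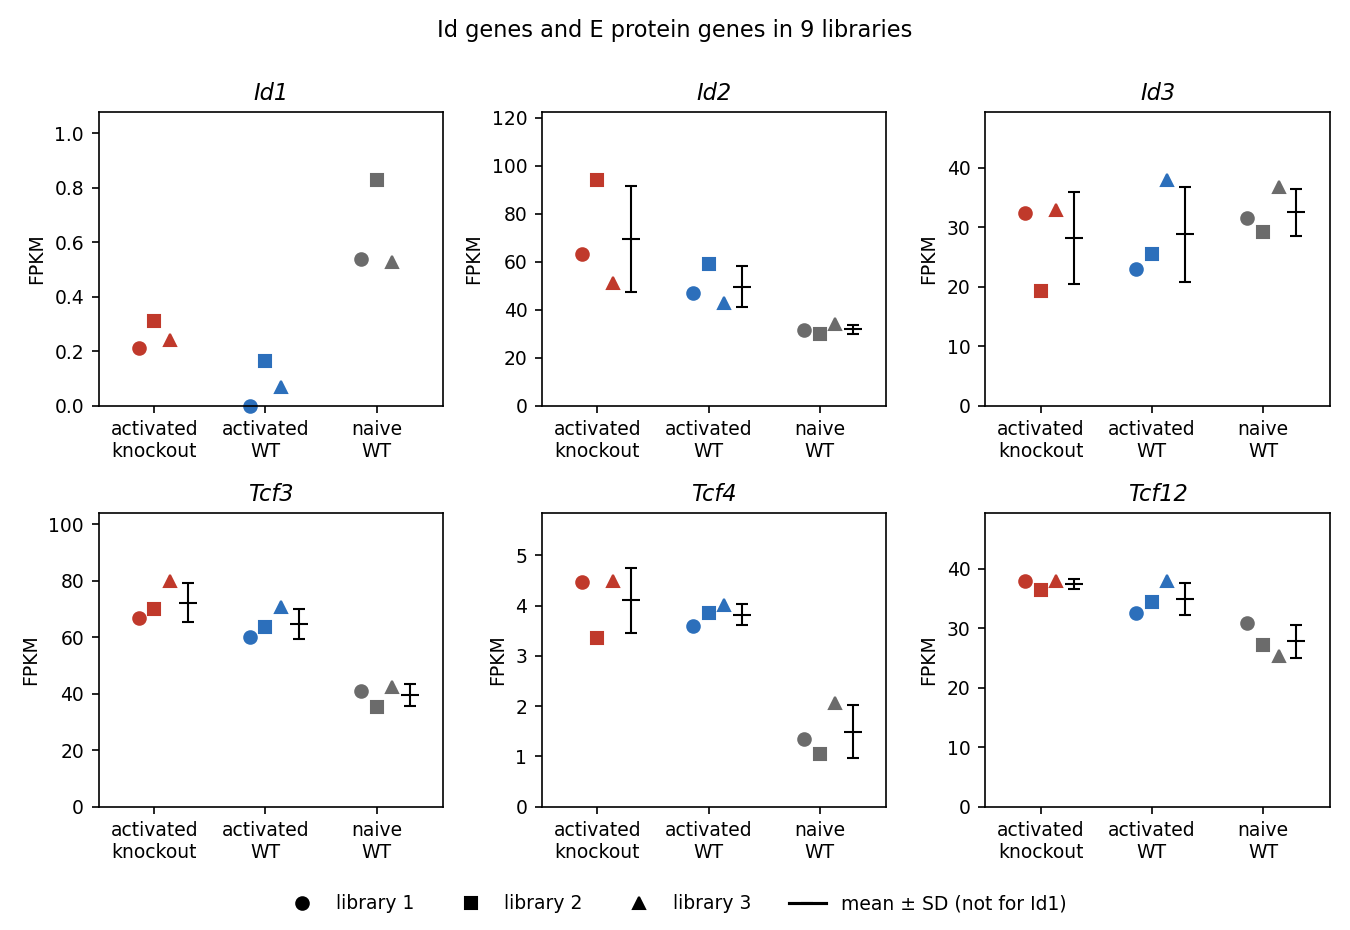
FPKM of the 6 genes in each library, 1 panel per gene with its own vertical axis starting at 0; points are libraries and bars give the mean and SD of the 3 libraries of a group, except for Id1, where points alone are drawn. Tcf3, Tcf4 and Tcf12 lie higher in all 6 activated libraries than in every naive library, Id2 does too, Id3 overlaps in all groups, and Id1 lies below 1 FPKM throughout.

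Activated WT cells were compared with naive WT cells to show what stimulation, culture and the change of gate did to these genes together. The 3 E protein genes and Id2 were higher in activated WT cells, and Id3 was not called. Of the 6 genes, 5 passed the filter of a mean of 0.5 FPKM, and 4 of these were called by limma at an adjusted p under 0.05, all of them higher. This share is read against a background in which 52.0% of all 15126 tested genes were called, 26.2% higher and 25.8% lower; the median log2 difference over all tested genes was -0.0091. For 4 of the 5 members no activated WT library reached into the naive range, as was also so for 59.4% of all tested genes, 29.6% lying higher and 29.8% lower.

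Id2, which holds E proteins off DNA and is prominent in effector cells, was at 47.0, 59.2 and 42.6 FPKM in activated WT libraries, against 31.6, 30.1 and 34.0 FPKM in naive libraries. All activated WT libraries lay above all naive ones. The log2 difference, taken on log2(FPKM + 1) as throughout, was 0.61 ± 0.214 (SE; limma adjusted p = 0.0434). This call was marginal: over 17 alternatives the adjusted p ran between 0.00746 and 0.138, and it passed in 9 of them. It was lost without naive library 1, 2 or 3, activated WT library 1 or 2, or knockout library 1, with log2 differences between 0.48 and 0.71 over all single-library omissions.

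Id3, the Id protein tied to T cell receptor signalling, was at 23.0, 25.5 and 38.0 FPKM in activated WT libraries and 31.5, 29.2 and 36.8 FPKM in naive libraries. Activated WT library 3 was the highest and library 1 the lowest of these 6, so the groups overlapped over the whole naive range. The log2 difference was -0.19 with a 95% interval from -0.76 to 0.38 (limma adjusted p = 0.536), which leaves room for a change of either sign.

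Id1 was listed at 0, 0.165 and 0.0697 FPKM in activated WT libraries and at 0.538, 0.829 and 0.528 FPKM in naive libraries. The activated WT libraries all lay below the naive ones, but the gene was under the filter and carries no call here. Myeloid cell markers moved the same way: the sum of 6 such genes was 4.35 to 6.08 FPKM in activated WT libraries and 68.6, 793 and 152 FPKM in naive libraries, with the highest sum in naive library 2, which also had the highest Id1. The part of myeloid RNA in the Id1 values was not tested.

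Tcf3, which makes the E protein that predominates in many lymphoid cells, was at 60.2, 63.7 and 70.7 FPKM in activated WT libraries, against 40.9, 35.2 and 42.4 FPKM in naive libraries. The groups were well apart, with a log2 difference of 0.70 ± 0.101 (SE; limma adjusted p = 0.000819). Tcf12, whose protein pairs with that of Tcf3 in developing T cells, was at 32.5, 34.4 and 37.8 FPKM in activated WT libraries and at 30.9, 27.2 and 25.4 FPKM in naive libraries. That difference was smaller, 0.32 ± 0.0853 (SE; limma adjusted p = 0.0144), and the lowest activated library stood just above the highest naive one. Both calls held in all 17 alternatives tried.

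Tcf4, an E protein gene best known for plasmacytoid dendritic cells and also used by B cells, was at 3.60, 3.85 and 4.01 FPKM in activated WT libraries, against 1.34, 1.05 and 2.07 FPKM in naive libraries. Its log2 difference of 0.97 ± 0.161 (SE; limma adjusted p = 0.00160) was the largest of the 5 tested members and was called in all 17 alternatives. B cell markers moved with it within groups. The 5 markers (Cd79a, Cd79b, Ms4a1, Pax5 and Ebf1) summed to 157, 102 and 159 FPKM in knockout libraries, 109, 119 and 140.3 FPKM in activated WT libraries and 45.1, 2.62 and 146 FPKM in naive libraries. Within each of the 3 groups the libraries ranked by Tcf4 as they ranked by this sum, and Id3 did so too in each group. Tcf3 and Tcf12 followed that order in activated WT cells and Tcf3 and Id2 in naive cells, but none of these 3 in knockout cells. Between groups, naive libraries 1 and 2 lay below every activated library in both the marker sum and Tcf4. Naive library 3 had a marker sum above every activated WT library, and Tcf4 at 2.07 FPKM, below every activated library. None of the 5 B cell markers was called by limma in any comparison; their median log2 difference was 1.77 between activated WT and naive cells. The 6 matched plasmacytoid dendritic markers summed to 77.3 to 131 FPKM in activated WT libraries and 83.4 to 118 FPKM in naive libraries, which overlapped. The median log2 difference of the 4 tested was 0.67, with Ccr9 called lower and Spib (1.36), Ly6d (1.36) and Bst2 (-0.02) not called. Ly6d ranked the libraries of each group as the B cell marker sum did. Spib did so in knockout and naive cells but not in activated WT cells. The defining marker Siglech, under the filter, was at 0.0149 FPKM or less in activated WT libraries and between 0.0851 and 1.15 FPKM in naive libraries. The part of B cells and of plasmacytoid dendritic cells in the Tcf4 values was not tested.

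**Figure D2:**
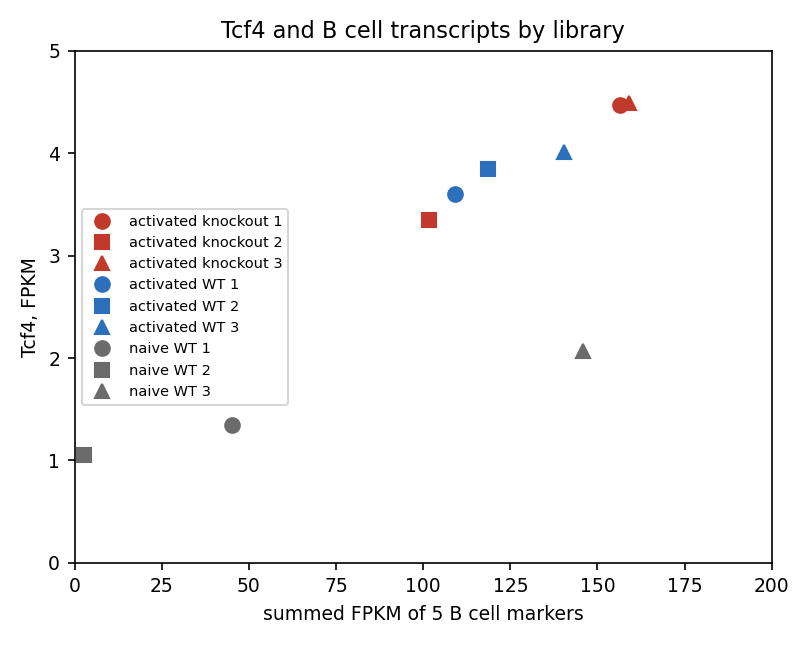
Tcf4 (FPKM, vertical axis) against the summed FPKM of 5 B cell markers (horizontal axis) in the 9 libraries, coloured by group. The order of the 3 libraries of each group is the same on both axes. Naive library 3, at a marker sum of 146 FPKM, has Tcf4 at 2.07 FPKM, below all 6 activated libraries. Naive libraries 1 and 2 lie below all 6 activated libraries on both axes.

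Markers of other cells also differed between activated WT and naive cells. Cd8a and Cd8b1 were both called higher, Klrd1 and Klrk1 of the 4 tested NK cell markers were called higher and Klrb1c and Tyrobp lower, and 4 of 5 tested myeloid markers were called lower. Of 4 regulatory T cell markers Ctla4, Ikzf2 and Il2ra were called higher and Foxp3 lower. The naive and the activated gates both took Foxp3GFP- cells. Kit and Rora of 4 innate lymphoid markers were called higher, Ccr9 of 4 tested plasmacytoid dendritic markers lower, and of 6 CD4 T cell markers 3 higher and 1 lower. Cd4 was at 338, 350 and 352 FPKM in activated WT libraries and 331, 319 and 285 FPKM in naive libraries. The part of these cells in the differences of the Id and E protein genes was not tested.

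Activated knockout cells were compared with activated WT cells, a comparison of labelled genotypes under the same culture and gate. The part of Bmpr1a loss itself in the differences was not tested. None of the 5 tested members was called by limma, and none had an unadjusted p under 0.05. Over all tested genes 4.14% were called, 3.30% higher and 0.840% lower, and 3786 (25.0%) had an unadjusted p under 0.05; the median log2 difference was 0.058. All 5 tested members overlapped between the groups. Of all tested genes 31.2% did not, 22.8% lying higher and 8.36% lower in knockout cells. Counts on 5 genes do not set the members apart from these shares. Among the cell type markers, Klrk1 of the NK list, Foxp3 and Ikzf2 of the regulatory T cell list and Il1rl1 of the innate lymphoid list were called higher in knockout cells and none lower. Foxp3 was at 5.89, 2.21 and 4.31 FPKM in knockout libraries, against 1.02, 0.989 and 0.867 FPKM in activated WT libraries, and the part of such cells in the Id and E protein values was not tested.

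Id2 was at 63.2, 94.1 and 51.0 FPKM in knockout libraries, against 47.0, 59.2 and 42.6 FPKM in activated WT libraries. Knockout library 2 was far the highest and library 3 lay within the WT range. The log2 difference was 0.44 with a 95% interval from -0.05 to 0.94 (limma adjusted p = 0.244), so on the FPKM + 1 scale the interval of the fold ran from 0.965 to 1.92. Id3 was at 32.4, 19.2 and 33.0 FPKM in knockout libraries, against 23.0, 25.5 and 38.0 FPKM in activated WT libraries. Here knockout library 2 was the lowest of the 6, and the difference was -0.04 with an interval from -0.61 to 0.53 (limma adjusted p = 0.960). Without that library it was 0.21, and without activated WT library 3 it was 0.17, so even its sign rested on single libraries.

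Id1 was at 0.212, 0.311 and 0.239 FPKM in knockout libraries, against 0, 0.165 and 0.0697 FPKM in activated WT libraries. All 3 knockout libraries lay above all 3 WT libraries, and all 6 lay below the naive ones. The exact two-sided permutation test on the libraries gave p = 0.1, the smallest value that 3 against 3 allows. Of all tested genes, which do not include Id1 and lie above the filter, 22.8% were separated in the same direction. With no filter on low values the limma adjusted p of this difference was 0.221. The myeloid marker sums were 3.64 to 6.09 FPKM in knockout libraries and 4.35 to 6.08 FPKM in activated WT libraries. At levels this low a gene at 0 may be a failed estimate.

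The E protein genes lay close together in the 2 activated groups. Tcf3 was at 66.9, 70.0 and 80.0 FPKM in knockout libraries, against 60.2, 63.7 and 70.7 FPKM in activated WT libraries, with a log2 difference of 0.15 and a 95% interval from -0.08 to 0.39 (limma adjusted p = 0.397). Tcf12 was at 37.9, 36.4 and 37.9 FPKM in knockout libraries, against 32.5, 34.4 and 37.8 FPKM in activated WT libraries, a difference of 0.10 with an interval from -0.10 to 0.30 (limma adjusted p = 0.519). Tcf4 was at 4.47, 3.35 and 4.49 FPKM in knockout libraries, against 3.60, 3.85 and 4.01 FPKM in activated WT libraries, a difference of 0.08 with an interval from -0.30 to 0.45 (limma adjusted p = 0.828). As folds on the FPKM + 1 scale these intervals ran from 0.945 to 1.31 for Tcf3, from 0.934 to 1.23 for Tcf12 and from 0.814 to 1.36 for Tcf4.

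**Figure D3:**
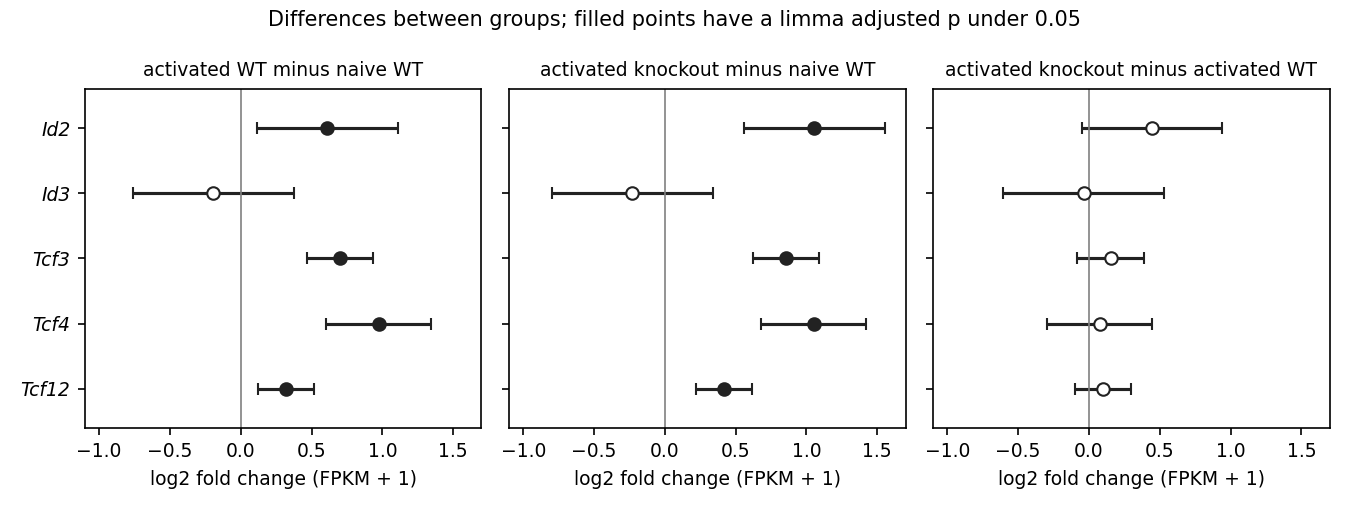
Log2 differences of the 5 tested genes, on log2(FPKM + 1), in the 3 comparisons, with 95% intervals from limma and a line at 0. For Tcf3, Tcf4, Tcf12 and Id2 the intervals lie above 0 in both comparisons with naive cells, and all 5 intervals between knockout and activated WT cells include 0.

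Knockout cells were also set against the naive WT cells, a comparison that combines genotype with activation and shares its naive libraries with the one above. Again 4 of the 5 tested members were called, all higher, where 56.9% of all tested genes were called, 31.8% higher and 25.1% lower. These 4 did not overlap between the groups, nor did 63.8% of all tested genes, 35.2% lying higher and 28.7% lower in knockout cells. The log2 difference was 1.06 for Id2 (limma adjusted p = 0.00369), 0.86 for Tcf3 (0.000250), 1.05 for Tcf4 (0.000915) and 0.42 for Tcf12 (0.00367), and each was called in all 17 alternatives. For Id3 it was -0.23 with an interval from -0.80 to 0.34 (limma adjusted p = 0.449).

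Because Id proteins act by pairing with E proteins, the balance of the 2 groups of transcripts was computed in each library, as a description with no test. The ratio of Id2 to Id3 was 1.95, 4.89 and 1.54 in knockout libraries, 2.05, 2.32 and 1.12 in activated WT libraries and between 0.923 and 1.03 in naive libraries. Every activated library thus carried more Id2 than Id3, whereas in naive cells the pair stood at near equal levels; knockout library 2 had the most uneven ratio. Id2 made up 69.8 ± 11.6% of the summed Id FPKM in knockout cells, 63.2 ± 9.12% in activated WT cells and 49.1 ± 1.28% in naive cells (SD, n = 3 each).

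The summed FPKM of the 3 E protein genes was 114 ± 7.41 in knockout cells, 104 ± 8.22 in activated WT cells and 68.8 ± 4.94 in naive cells (SD, n = 3 each). The Id sum was 97.9 ± 14.8 FPKM in knockout cells, 78.5 ± 7.69 FPKM in activated WT cells and 65.0 ± 5.73 FPKM in naive cells. The Id sum divided by the E protein sum was 0.726, 0.833 and 0.717 in activated WT libraries and 0.870, 0.947 and 1.02 in naive libraries. Those groups did not overlap in this ratio, while the knockout libraries, at 0.877, 1.03 and 0.688, spread over both. Within the E protein sum Tcf3 contributed 63.4 ± 2.11% in knockout cells, 62.6 ± 0.176% in activated WT cells and 57.4 ± 2.89% in naive cells. Tcf12 contributed 33.0%, 33.7% and 40.5% in the same groups and Tcf4 3.60%, 3.69% and 2.15%. These are shares of RNA, not of protein, and say nothing about dimers.

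**Figure D4:**
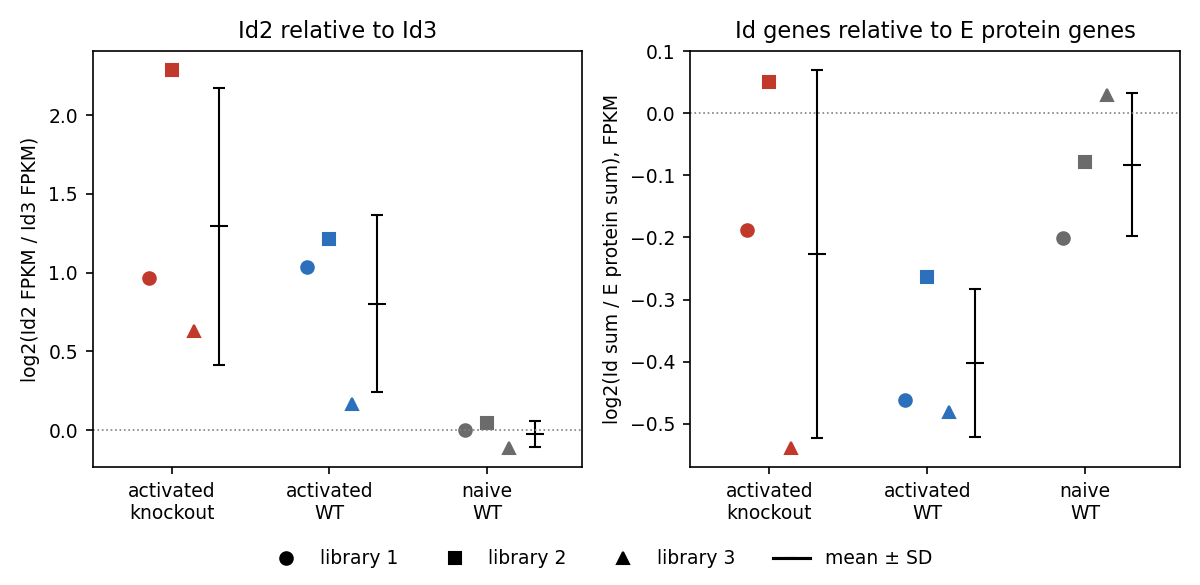
Balance of the Id and E protein transcripts by library: the log2 ratio of Id2 to Id3 and the log2 ratio of summed Id to summed E protein FPKM, with points for libraries and bars for the mean and SD of 3. The log2 ratio of Id2 to Id3 lies between -0.116 and 0.0428 in the 3 naive libraries. In the 6 activated ones it runs from 0.165 (activated WT library 3) to 2.29 (knockout library 2). The Id to E protein ratio of activated WT cells lies below that of naive cells.

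The spread between libraries differed among the genes. In knockout cells the coefficient of variation was 32.0% for Id2 and 27.6% for Id3, against 9.48% for Tcf3, 15.9% for Tcf4 and 2.27% for Tcf12. Knockout library 2, with the highest Id2 and the lowest Id3, also had granzyme B (Gzmb), a cytotoxic effector gene, at 1054 FPKM, where the other knockout libraries had 205 and 262 FPKM and the activated WT libraries 340, 208 and 149 FPKM. Without that library the log2 difference of Id2 between knockout and activated WT cells was not called either, and no single-library omission gave any member a call in that comparison.

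Across the 9 libraries Pearson's r was 0.958 between Tcf3 and Tcf4, 0.908 between Tcf3 and Tcf12 and 0.823 between Tcf4 and Tcf12. Id2 and Id3 had an r of -0.615. The libraries share the difference between activated and naive cells, in which the E protein genes were called and Id3 was not. Within groups, Tcf3, Tcf4 and Tcf12 ranked the libraries alike in activated WT cells but not in naive or knockout cells. Knockout library 2 had the highest Id2 and the lowest Id3 of the 9. By Pearson's r, among 9191 genes averaging 5 FPKM or more in 1 or more groups, the genes most like Id2 were Gadd45g (0.964), Mafg (0.957) and Ccl3 (0.956). Those most like Id3 were Sec22c (0.949), Rnf123 (0.938) and Zfp513 (0.917). For Tcf3 they were Tbc1d7, Tapbpl and Mrpl4, for Tcf4 Il10rb, Oaz2 and Fuca1, and for Tcf12 Uvrag, Wdr7 and Sept6, with r from 0.971 to 0.994.

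The other genes of the pathway were read by lists, each count being set against the share of all tested genes called. Between activated WT and naive cells this share was 52.0%, with 26.2% higher and 25.8% lower. Between knockout and activated WT cells it was 4.14%, with 3.30% higher and 0.840% lower. Of the tissue-specific bHLH proteins that pair with E proteins, 11 of 14 were matched and only Lyl1 passed the filter, with no call in any comparison. Among the cofactors of E proteins, 5 of 9 tested were lower in activated WT than in naive cells and none higher, with a median log2 difference of -0.50. They included the acetyltransferase genes Crebbp (-0.97) and Ep300 (-0.50), the LIM-domain gene Lmo4 (-0.93) and the deacetylase gene Hdac2 (-0.67). Ldb1 (-0.61), whose protein bridges LIM-domain partners, was also among them. The Ep300 call held in 6 of 17 alternatives (adjusted p 0.00227 to 0.125). It was lost with no filter, median-of-ratios scaling or only the 6 compared libraries, and without any 1 library other than naive library 3. None of the cofactors was called between knockout and activated WT cells.

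On the BMP side of Id gene control, 5 of 7 tested genes were lower in activated WT than in naive cells and 1, Bmpr1a, was higher (1.18, limma adjusted p = 0.00215), with a median of -0.62 over the list. The lower genes were Smad7 (-1.31), Smad5 (-0.84), Smurf1 (-0.67), Smad4 (-0.62) and Smad1. Smad7, an inhibitory SMAD gene that BMP and TGF-beta signals induce, was the 1 gene of the list called between the genotypes: it was at 12.8 ± 0.859 FPKM in knockout cells, 18.5 ± 2.27 FPKM in activated WT cells and 47.3 ± 3.89 FPKM in naive cells (SD, n = 3 each), and the knockout was lower than activated WT by a log2 difference of -0.49 (limma adjusted p = 0.0439). This call held in 7 of 17 alternatives (adjusted p 0.00823 to 0.151), though the direction stayed the same in all 17. It was lost with no filter, a replicate block or only the 6 compared libraries. Omitting naive library 1, 2 or 3, activated WT library 2 or 3, or knockout library 2 or 3 also ended it.

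On the T cell receptor and cytokine side, 5 of 12 genes were higher and 2 lower in activated WT than in naive cells, and none was called between knockout and activated WT cells. Tbx21, which encodes the type 1 effector factor T-bet, was at 29.2 FPKM in activated WT cells and 0.943 FPKM in naive cells (log2 difference 3.98, limma adjusted p = 2.83e-06), and Stat4 was higher by 1.48 and Prdm1 by 0.88. The Prdm1 call was lost with no filter, with quantile normalization, and without naive library 1, 2 or 3 or activated WT library 1 or 2 (adjusted p 0.0184 to 0.0850 over 17 alternatives). Of the Egr factors, known inducers of Id3, Egr1 was lower in activated WT cells (adjusted p = 0.0274 by limma). It was at 23.7 ± 3.74 FPKM in activated WT cells and 33.7 ± 5.03 FPKM in naive cells (SD, n = 3 each). The Egr1 call was lost with array quality weights and without naive library 2 or 3 or activated WT library 1 (adjusted p 0.0232 to 0.0852 over 17 alternatives). Egr2 was at 6.95 FPKM in activated WT cells and 7.01 FPKM in naive cells and Egr3 at 12.3 FPKM and 10.6 FPKM in the same groups, neither of them called.

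Of 7 genes known for the turnover of Id and E proteins, 5 were higher and 1 lower in activated WT than in naive cells, with a median of 0.59; Cdc20 (4.13), Asb2 (1.45) and Fzr1 (1.36) led the list. Cdc20 and Fzr1 activate the ubiquitin ligase of the cell cycle that can mark Id proteins, and Asb2 is a ligase subunit reported to act on E proteins. Between knockout and activated WT cells the median log2 difference of the list was 0.42, against 0.058 over all tested genes, and Asb2 alone of the 7 was called. With array quality weights, under which 3851 of all tested genes were called, all 7 were called higher, and in each of the other alternatives 0 or 1 was. Asb2 was at 17.5, 20.6 and 14.4 FPKM in knockout libraries, 5.60, 5.69 and 6.77 FPKM in activated WT libraries and 0.578, 1.79 and 2.85 FPKM in naive libraries (knockout minus activated WT 1.39, limma adjusted p = 0.0462). All knockout libraries lay above all activated WT libraries, but the call held in 5 of 17 alternatives (adjusted p 0.0123 to 0.160). It was lost with a pseudocount of 0.1, no filter, median-of-ratios scaling, quantile normalization or a replicate block. Omitting naive library 2 or any 1 of the 6 activated libraries also ended it.

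Of 18 genes known to be under E protein control in T cells, 14 passed the filter. In activated WT against naive cells 3 were higher (Cdkn1a, Gfi1 and Socs1) and 3 lower (Il7r, Foxo1 and Klf2), with a median of 0.30. Between knockout and activated WT cells Cdkn1a, the cell-cycle inhibitor gene p21, was the 1 call. It was at 18.4, 31.2 and 29.5 FPKM in knockout libraries, against 6.67, 8.31 and 3.54 FPKM in activated WT libraries, a log2 difference of 1.96 (limma adjusted p = 0.0232) with the groups well apart. The call held in 13 of 17 alternatives (adjusted p 0.00532 to 0.0982). It was lost with a replicate block, with only the 6 compared libraries, and without knockout library 2 or 3.

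Effector genes associated with Id2 were higher in activated WT cells for 7 of 8 tested and lower for none, where 26.2% of all tested genes were higher. Their median log2 difference was 3.33, and Gzmb (6.74), Il12rb2 (6.47) and Cxcr3 (4.35) were the leading ones. None was called between knockout and activated WT cells, where the median was 0.13. Of 7 naive, memory and follicular genes associated with Id3, Bcl6 was higher and Il7r and Lef1 lower in activated WT than in naive cells. Bcl6, a follicular helper factor, was at 12.4 FPKM in activated WT cells and 7.43 FPKM in naive cells, and Il7r, the interleukin 7 receptor gene, at 95.1 FPKM and 190.3 FPKM. Tcf7 was at 630.3 FPKM in activated WT cells and 719 FPKM in naive cells, Cxcr5 at 8.37 FPKM and 5.58 FPKM, and Bach2 at 64.8 FPKM and 51.0 FPKM in the same groups, none of these 3 called. None of the 7 was called between knockout and activated WT cells. The lists share some genes, among them Tbx21, Prdm1, Il7r and Cxcr5.

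**Figure D5:**
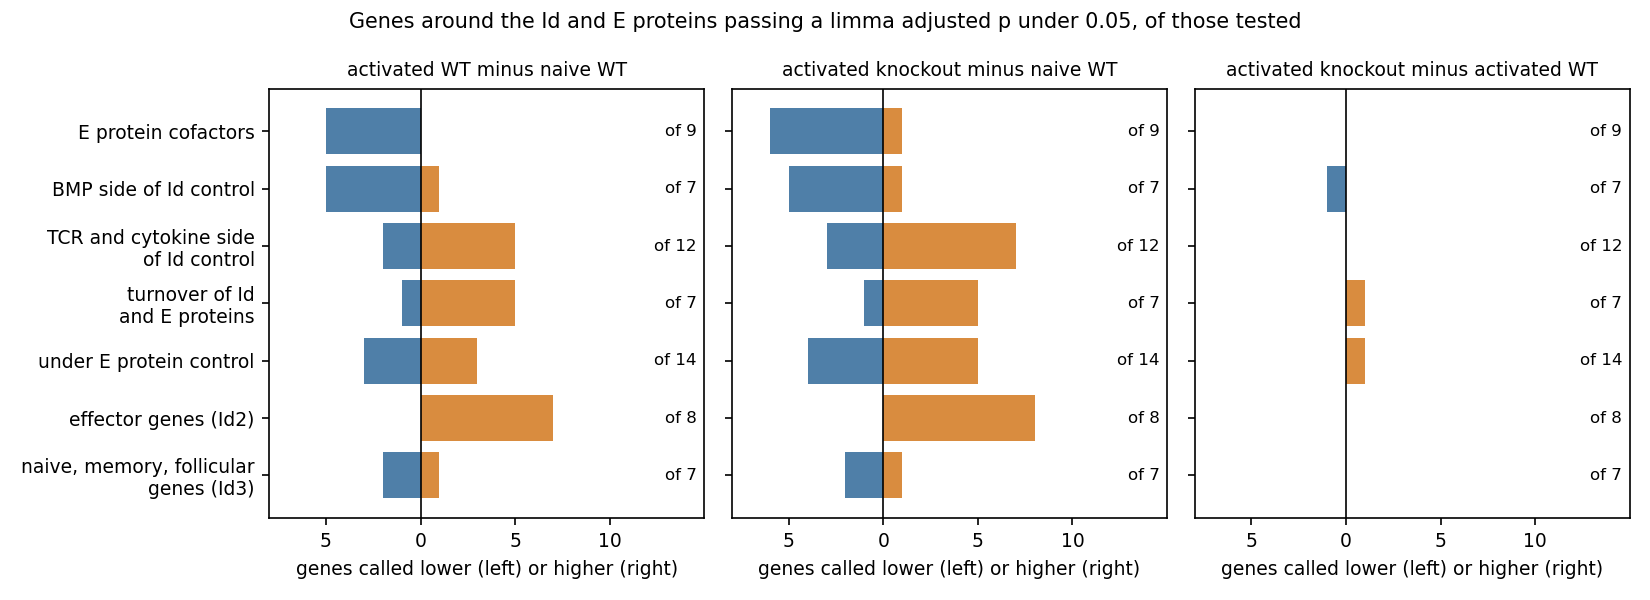
Number of tested genes of each list called higher (right of 0) or lower (left of 0) by limma in each comparison. Most calls fall between activated and naive cells, with 7 of 8 effector genes higher in activated WT cells. Of all tested genes 26.2% were called higher and 25.8% lower between activated WT and naive cells. Between knockout and activated WT cells Cdkn1a, Asb2 and Smad7 are the called genes of the 7 lists shown, where 4.14% of all tested genes were called.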

How the data were processed

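RNA of 9 sorted CD4+ T cell libraries was sequenced, and the authors deposited FPKM per Ensembl gene, made with TopHat2, Cufflinks and Cuffdiff on GRCm38 per the submitters' processing notes. Neither versions, gene annotation and strand setting nor read depth are stated in the sources used here. Symbols were attached from GENCODE M21 (24876 of 25759 IDs). Genes averaging 0.5 FPKM or more were tested on log2(FPKM + 1) with limma 3.58.1 (R 4.3.3; all 9 libraries in 1 fit, trended variance, two-sided) and Benjamini-Hochberg adjustment over all tested genes at 0.05; intervals are 95%. The procedure was tested on simulated data with planted differences larger than those of any tested member. That run does not cover differences of the members' size. Fold changes of low genes are understated by the added 1. The labels do not say whether libraries came from separate mice, so p-values measure only the spread between libraries. The members and lists were chosen with earlier results of these data known. Named were all members, up to 3 called genes per list and comparison with the largest change and a mean of at least 5 FPKM in the higher group, and a fixed set of genes (Bmpr1a, Cdkn1a, Tcf7, Egr1, Egr2, Egr3, Prdm1, Tbx21, Bcl6, Cxcr5, Bach2); other called list members are named without values or to complete a list, and a few list genes are not reported here and were left out of the lists. Alternatives were pseudocount, filter, scaling, weights, a replicate block, the compared libraries alone and each library left out.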

Additional observations from a re-analysis of the deposited data

How the results depend on the processing

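Tcf3, Tcf4 and Tcf12 were called higher in both comparisons with naive cells, and Id2 in knockout against naive cells, under all 17 alternatives, and no member was called between knockout and activated WT cells under any of them. The Id2 difference between activated WT and naive cells missed the threshold with no filter (0.61, adjusted p = 0.0702) and with quantile normalization (0.56, 0.0590), and ranged from 0.48 to 0.71 over single-library omissions. Id3 between knockout and activated WT cells turned positive with array quality weights (0.13) and ranged from -0.18 to 0.21 over omissions; against naive cells the knockout ranged from -0.36 to 0.015 (the highest without knockout library 2). With no filter Id1 was called lower than in naive cells, in activated WT (-0.60, adjusted p = 0.00157) and in knockout cells (-0.38, 0.0101). A pseudocount of 0.1 gave Id1 differences of -2.12 for activated WT against naive, 1.09 for knockout against activated WT and -1.03 for knockout against naive. The 626 genes called between knockout and activated WT cells (499 higher) became 416 with no filter, 306 with median-of-ratios scaling (166 higher), 324 with quantile normalization (183 higher), 3851 with array quality weights, 92 with the 6 compared libraries alone, and between 64 and 1037 over omissions. With the replicate block the count was 58. Deviations of same-numbered libraries correlated at 0.0027 to 0.054 and those of different-numbered libraries at -0.0682 to 0.0375. These small values do not settle whether replicate numbers pair the libraries. The block changed no call of a member, but ended the calls of Smad7, Asb2 and Cdkn1a between knockout and activated WT cells. The list genes were put through the same alternatives after their values were seen, and no called one changed direction. The causes were not tested. Depth cannot be read from FPKM, so the counting error of the low Id1 and Tcf4 values is unknown.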
